A study of Mus musculus with 12 samples.

Results

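The genes described here were 36 genes of the endoplasmic reticulum (ER) that fold, modify, export or clear secreted proteins, or that sense the load of such proteins. They were taken from a fixed list by gene symbol. All 36 had exactly 1 row in each deposited table, among 32498 rows with a gene name, and all 36 passed the filter that kept 16852 genes for testing. The samples were bulk RNA-seq libraries of tongue, labelled as tumor and tumor-associated tissue, from C57BL/6 mice bought at 5 weeks of age. Every mouse, controls included, had drunk water with the oral carcinogen 4NQO (100 µg/mL) for 16 weeks. From week 4 of that exposure, the mice behind 6 libraries were gavaged with gallic acid (GA), a plant phenol, at 100 mg/kg 5 times per week, and those behind the other 6 received the vehicle on the same schedule. The labels give neither sex nor the age at sacrifice. No library came from a mouse without 4NQO.

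Values are FPKM, that is, reads divided by the exon length and by the library total, divided by a scaling factor for each library, and are called scaled FPKM. They are per length, so levels of different genes can be set side by side, but only roughly. The length is that of all annotated exons of a gene, which can exceed that of its transcript. Library totals, recovered from the FPKM values, were 18040152 to 21770354 reads in the vehicle group and 21237167 to 25192496 in the GA group. The libraries were split by Lipf, a lipase secreted by tongue glands. As deposited, Lipf stood at 20090 FPKM in vehicle 3, 8765 in vehicle 5 and 25476 in GA 2, and at no more than 0.508 in the other 9 libraries, with the limit set at 1000. These 3 are called the libraries with high Lipf. The other 9 were 4 vehicle libraries (1, 2, 4 and 6) and 5 GA libraries (1, 3, 4, 5 and 6). Markers of tongue epithelium were abundant in all 12 libraries, with a summed level of 10 keratin, desmosome and envelope genes of 19587 to 59258 scaled FPKM.

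Proteins that enter the secretory pathway are threaded into the ER through the Sec61 channel, trimmed by signal peptidase and folded by chaperones and disulfide-forming enzymes. KDEL receptors bring escaped chaperones back from the Golgi, and misfolded proteins are pulled out and degraded. The sensors encoded by Ern1 (IRE1), Eif2ak3 (PERK) and Atf6 detect unfolded protein and raise the transcription of many of these genes through the factors XBP1, ATF4 and ATF6. Gland cells, which export large amounts of protein, are known for a well developed ER. Bhlha15 (MIST1) is a transcription factor of serous secretory cells. In a bulk library, fewer cells of a type and less RNA per cell cannot be told apart.

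Part of the list held a promoter sequence named for the ER stress response, so its share among these genes is no independent finding. The ER stress response element in its long form, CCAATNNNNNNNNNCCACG, is a known binding site for NF-Y and ATF6. It was searched on both strands from 250 bases before to 50 after each start in RefSeq's annotation of GRCm38.p6, the assembly also called mm10. Of the 36 genes, 30 matched that promoter table. The element was present in 10 of the 30 (33.3%): Calr, Canx, Creld2, Derl3, Dnajc3, Ero1b, Hsp90b1, Hspa5, Pdia6 and Syvn1. Of all 27025 genes in the table, 37 (0.137%) held it. A shorter XBP1-type element, TGACGTGG, occurred in 1 of the 30, Kdelr3, and in 0.714% of all genes. The ATF4-type element TGATGCAAT occurred in 0 of the 30 and in 0.222% of all genes. A match is a stretch of letters and no evidence of binding. Windows are shown for the most studied target (Hspa5), for the gene with a pair of sites (Hsp90b1) and for 3 genes that stood out between libraries (Derl3, Ero1b and Kdelr3). Each is on the strand of the gene, 5′ to 3′, with the motif in capitals. In Hspa5 and in the farther site of Hsp90b1 the element reads as written above, and in the other windows it is on the opposite strand.
Hspa5, chr2:34772020-34772048, plus strand: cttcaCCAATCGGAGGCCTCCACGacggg
Hsp90b1, nearer site, chr10:86705528-86705556, minus strand: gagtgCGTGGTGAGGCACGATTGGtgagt
Hsp90b1, farther site, chr10:86705633-86705661, minus strand: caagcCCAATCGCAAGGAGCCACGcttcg
Derl3, chr10:75893237-75893265, plus strand: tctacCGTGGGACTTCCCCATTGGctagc
Ero1b, chr13:12565677-12565705, plus strand: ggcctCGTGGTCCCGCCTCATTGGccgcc
Kdelr3 (XBP1-type element), chr15:79516373-79516390, plus strand: ccccgCCACGTCAccgcg
The element lay 65 to 47 bases before the start of Hspa5, 156 to 138 before that of Derl3 and 201 to 183 before that of Ero1b. In Hsp90b1 the sites lay 107 to 89 and 212 to 194 bases before the start. The XBP1-type element of Kdelr3 was 30 to 23 bases before its start.

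The 36 genes spanned a wide range of levels. P4hb, which encodes protein disulfide isomerase, was the highest member in every library, at 210 to 409 scaled FPKM. It was followed in the mean of the 9 libraries without high Lipf by Calr and Pdia3, at 146 ± 34.9 and 117 ± 34.0 (SD, n = 9). The lowest members there were Bhlha15 and Derl3, at 0.194 ± 0.206 and 0.268 ± 0.184. Spcs1, a signal peptidase subunit, varied least among the 9, at 1.23 times from lowest to highest library. Sdf2l1 and Creld2, both small ER-resident proteins, varied 3.82 and 3.96 times. Bhlha15 and Derl3, the lowest members, varied most, at 24.2 and 12.4 times.

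The comparison of the 3 libraries with high Lipf against the other 9 asks how far ER genes move with gland tissue. Because the split uses a gene measured in the same libraries, it is given as a description, with no test. A gene was counted as higher where each of the 3 libraries lay above each of the 9 and the difference of mean log2(scaled FPKM + 0.1) was at least 0.58. Of all genes tested, 3.31% were higher by this rule and 1% were lower by its mirror image. Of the 36 members, 4 were higher and 0 lower: Bhlha15, Derl3, Xbp1 and Ero1b. The median difference over the 36 was 0.31 on the log2 scale, against -0.011 over all genes tested. It was above 0 for 32 members, and for 48.8% of all genes tested.

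Bhlha15 had 6.92 scaled FPKM in vehicle 3, 3.80 in vehicle 5 and 7.18 in GA 2. In the 9 other libraries it ranged from 0.0264 to 0.641, with a median of 0.0770, which came from 2 to 52 reads per library. The 3 libraries thus lay well clear of the rest. The difference was 4.59 ± 0.53 (SE) on the log2 scale, and the ratio of the means was 30.8.

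**Figure D1:**
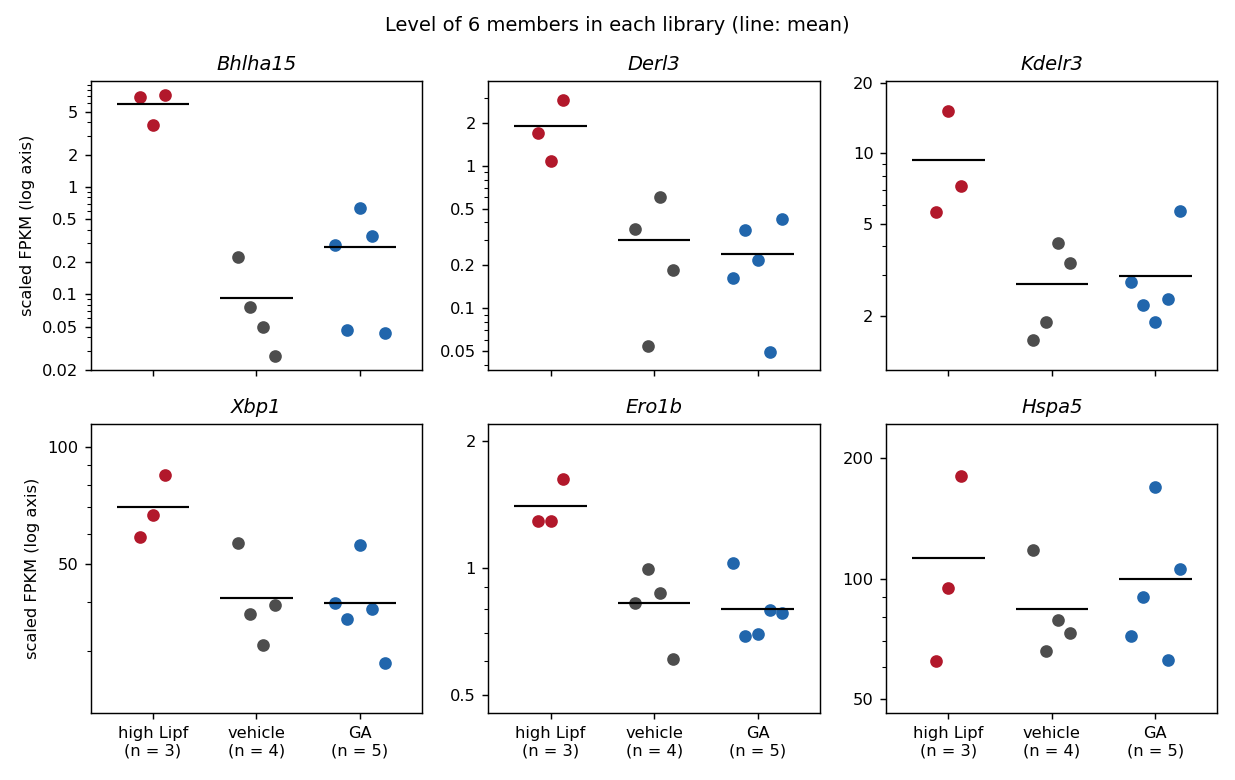
Scaled FPKM (log axes) of 6 members in the 3 libraries with high Lipf (red), the other 4 vehicle libraries (grey) and the other 5 GA libraries (blue), with 1 point per library and lines at the means. Bhlha15, Derl3, Xbp1 and Ero1b are higher in all 3 red points than in any other, Kdelr3 in all but 1 pairing, and Hspa5 overlaps across all groups.

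Derl3, a derlin of the channel that returns misfolded proteins to the cytosol, had 1.71, 1.08 and 2.93 scaled FPKM in vehicle 3, vehicle 5 and GA 2. The other 9 ranged from 0.0491 to 0.607, with a median of 0.217 and with 2 to 28 reads per library. The groups did not overlap. The difference was 2.51 ± 0.47 and the ratio of means 7.10.

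Xbp1, the transcription factor activated by IRE1, had 58.9, 67.1 and 85.001 scaled FPKM in vehicle 3, vehicle 5 and GA 2, against 27.9 to 56.7 in the other 9 (median 38.4). The lowest of the 3 was close to the highest of the 9, vehicle 1. The difference was 0.82 ± 0.20, a ratio of 1.75, and without scaling of the libraries the groups overlapped. The tables give 1 value per gene, so spliced and unspliced Xbp1 were not separated.

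Ero1b, the oxidase that recharges protein disulfide isomerase, had 1.29, 1.30 and 1.63 scaled FPKM in the same order, against 0.609 to 1.03 in the other 9 (median 0.796). Here too the groups did not overlap. The difference was 0.73 ± 0.18, a ratio of 1.74.

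Kdelr3, a KDEL receptor, fell just short of the rule. It had 5.58 scaled FPKM in vehicle 3, 15.2 in vehicle 5 and 7.26 in GA 2. The other 9 ranged from 1.58 to 5.65 with a median of 2.37, and only GA 6, at 5.65, lay above vehicle 3. Its difference was 1.64 ± 0.37 and the ratio of means 3.25. The other receptor of the list, Kdelr2, differed by 0.24 ± 0.13, with 28.7 to 39.4 against 23.8 to 32.0 scaled FPKM.

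**Figure D2:**
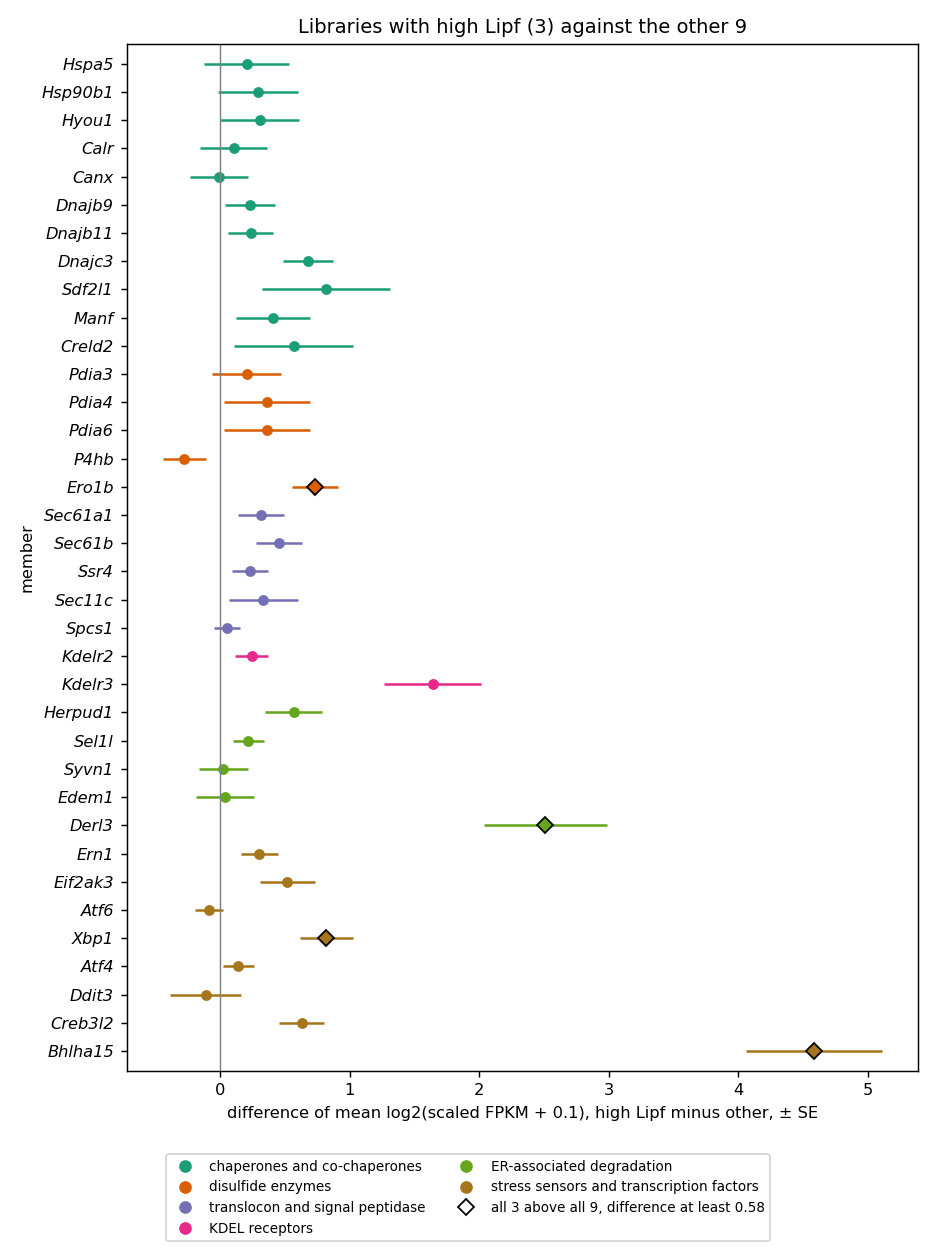
Difference of mean log2(scaled FPKM + 0.1) between the 3 libraries with high Lipf and the other 9, with SE, for the 36 members coloured by role. Diamonds mark the 4 members for which all 3 libraries lay above all 9 with a difference of at least 0.58. Most members lie slightly right of 0, and Bhlha15, Derl3 and Kdelr3 stand apart.

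The chaperones showed another picture, since the 3 libraries differed among themselves. None of the 11 chaperones and co-chaperones was higher by the rule, although 10 had a difference above 0 and the median was 0.29. Hspa5, which encodes BiP, the main chaperone of the ER, had 62.2 scaled FPKM in vehicle 3, 94.6 in vehicle 5 and 180 in GA 2. The other 9 ranged from 62.5 to 169 with a median of 78.9. Vehicle 3 was thus the lowest of all 12 libraries and GA 2 the highest. Hsp90b1, the ER form of HSP90, had 35.7, 59.5 and 103 against 32.6 to 88.6. Calr, a lectin chaperone of glycoproteins, had 95.6, 168 and 222 against 102 to 211, and its partner Canx had 38.6, 56.5 and 68.2 against 42.7 to 94.5. Vehicle 3 was again lowest of the 12 for Calr and Canx. About 15.7% of the exon bases of Hsp90b1 overlap other annotated genes, so part of its reads may be shared.

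Sdf2l1, a partner of the J-domain proteins, differed most among the chaperones, with 8.87, 18.4 and 52.2 scaled FPKM in vehicle 3, vehicle 5 and GA 2 against 6.10 to 23.3 in the other 9. Its difference was 0.82 ± 0.49 and rested on GA 2, the only library above the range of the 9. Creld2 had 11.1, 26.7 and 56.8 against 10.02 to 39.7, a difference of 0.57 ± 0.46. Manf, an ER-resident protein that can be secreted and binds BiP, had 11.5, 20.4 and 34.4 against 12.4 to 25.5. Hyou1, a large chaperone that serves BiP as an exchange factor, had 8.16, 12.3 and 23.8 against 7.66 to 18.5. In each of these 4 genes GA 2 was the highest of the 12 libraries, and vehicle 3 lay below the median of the 9.

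Among the J-domain co-chaperones of BiP, Dnajc3 had 16.0, 26.0 and 31.6 scaled FPKM against 12.1 to 19.5 in the other 9, a difference of 0.68 ± 0.19. Vehicle 5 and GA 2 lay above all 9 and vehicle 3 did not. Dnajb11 differed by 0.24 ± 0.17 and Dnajb9 by 0.23 ± 0.19, and while GA 2 lay above all 9 for Dnajb11, all 3 libraries lay within the range of the 9 for Dnajb9.

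Of the disulfide enzymes, Pdia3, Pdia4 and Pdia6 lay, like most chaperones, below the mean of the 9 in vehicle 3 and above it in vehicle 5 and GA 2, whereas Ero1b was higher in all 3 and P4hb lay below that mean in all 3. Pdia6 had 29.6, 50.3 and 87.6 scaled FPKM in vehicle 3, vehicle 5 and GA 2 against 26.1 to 75.3 in the other 9. Pdia4 had 23.8, 49.4 and 64.2 against 20.6 to 59.9, and Pdia3, which works on glycoproteins together with Calr and Canx, had 82.9, 152 and 177 against 79.8 to 187. Their differences were 0.36 ± 0.33, 0.36 ± 0.33 and 0.21 ± 0.27. P4hb had the lowest difference of the 36, at -0.27 ± 0.17. It had 210, 274 and 256 scaled FPKM against 249 to 409, so vehicle 3 lay below all 9 and the other two within their range.

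Vehicle 3 lay below the mean of the 9 libraries in 10 of the 11 chaperones and co-chaperones, all but Dnajc3, and in 4 of the 5 disulfide enzymes, all but Ero1b. GA 2 and vehicle 5 each lay below it in 0 of the 11 and in 1 of the 5, P4hb. Over all 36 members GA 2 was the highest of the 12 libraries for 19 and vehicle 5 for 6. Vehicle 3 was the highest for 0 and the lowest for 6. GA 2 exceeded vehicle 3 in 34 of the 36, all but Ddit3 and Atf6. The median of the 36 differences from the mean of the 9 was 0.68 in GA 2, 0.39 in vehicle 5 and -0.065 in vehicle 3. Lipf was 22249 scaled FPKM in vehicle 3, 8228 in vehicle 5 and 26032 in GA 2, so the order of Lipf was not that of the members' median.

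**Figure D3:**
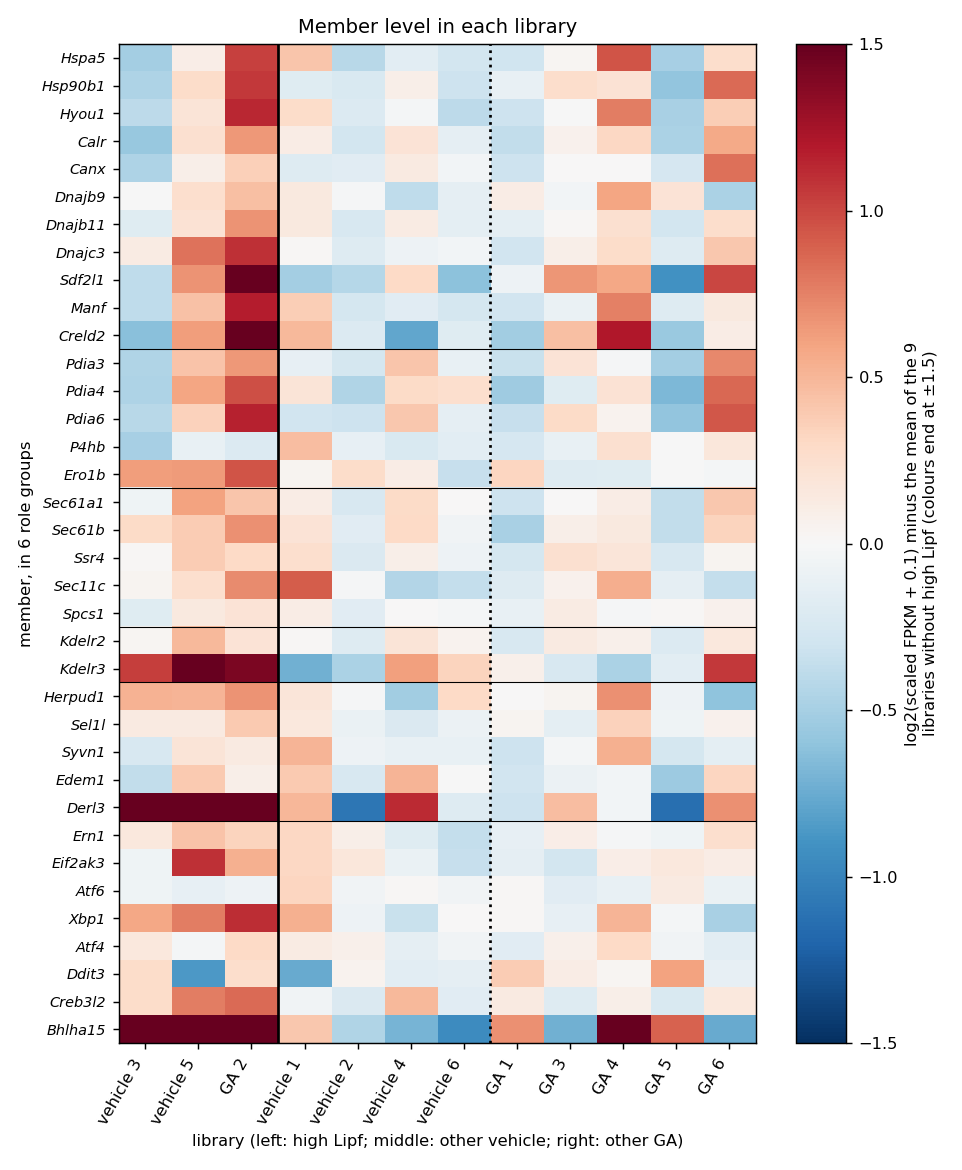
Level of each member (rows, in 6 role groups divided by lines) in each library (columns), as log2(scaled FPKM + 0.1) minus the mean of the 9 libraries without high Lipf, with colours ending at ±1.5. Of the 3 libraries at the left, GA 2 is red for nearly all rows, while vehicle 3 is blue in most chaperone and disulfide rows and red for Derl3, Kdelr3, Xbp1 and Bhlha15.

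The translocon and signal peptidase genes had 5 of 5 differences above 0, a median of 0.32, beside 0.31 for all 36 members, and 0 of 5 higher by the rule. Sec61b, a small subunit of the channel, had 36.1, 38.6 and 47.6 scaled FPKM in vehicle 3, vehicle 5 and GA 2 against 21.1 to 37.1, a difference of 0.45 ± 0.18. Sec61a1, the channel itself, differed by 0.32 ± 0.18, Ssr4, a subunit of the translocon-associated complex, by 0.23 ± 0.14, and Sec11c, a catalytic signal peptidase subunit, by 0.33 ± 0.27. Spcs1 had 36.3, 45.6 and 47.2 against 36.6 to 44.8, a difference of 0.057 ± 0.10. The opposite strand holds another gene over 16.3% of its exon bases, and the strand setting of the authors' counting is not given in the sources used here.

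In the degradation group, only Derl3 was higher by the rule. Herpud1, which organises the degradation complex, had 35.4, 35.1 and 39.5 scaled FPKM in vehicle 3, vehicle 5 and GA 2 against 16.2 to 39.8 in the other 9, and among the 9 only GA 4 reached the level of the 3. The difference of Herpud1 was 0.57 ± 0.22. Sel1l and Syvn1, which together form the main ubiquitin ligase of the ER, differed by 0.22 ± 0.12 and 0.027 ± 0.19, and Edem1, a lectin-like selector of misfolded glycoproteins, by 0.039 ± 0.22.

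Among sensors and factors, Eif2ak3 had 2.91, 6.63 and 4.47 scaled FPKM in vehicle 3, vehicle 5 and GA 2 against 2.39 to 3.82, a difference of 0.52 ± 0.21. Creb3l2, a membrane-bound factor that raises genes for ER export, had 4.06, 5.74 and 6.06 against 2.82 to 4.69, a difference of 0.63 ± 0.17. For both, vehicle 5 and GA 2 lay above all 9 and vehicle 3 did not. Ern1 differed by 0.30 ± 0.14 and Atf4 by 0.14 ± 0.12, while Atf6 and Ddit3 stood at -0.086 ± 0.11 and -0.11 ± 0.27. Ddit3, which encodes the stress factor CHOP, had 8.77, 3.92 and 8.67 scaled FPKM, and vehicle 5 was the lowest of the 12 libraries.

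Which library was left out mattered. Without vehicle 3, 8 members were higher by the rule (5.19% of all genes), the added ones being Dnajc3, Kdelr3, Eif2ak3 and Creb3l2, and the median difference was 0.54. Without GA 2 the same 4 members were higher (4.06% of all genes), the median was 0.096 and 23 members were above 0. Among vehicle libraries alone (2 against 4), 5 members were higher (7.55% of all genes), the 4 and Kdelr3, and the median was 0.15. The GA group held only 1 library with high Lipf, so it gave no such comparison.

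Other cell types moved with the same split. Of the tongue gland markers other than Lipf, 10 of 12 tested were higher by the rule. Some of the 12 averaged only 0 to 0.058 scaled FPKM in the 9, so they passed the filter through the 3 libraries alone. For these genes, being higher was largely fixed by the filter. The listed gland markers other than Lipf summed to 3587 to 9294 scaled FPKM in the 3 libraries against 4.11 to 12.03 in the 9. Of them, 3 were at 0 in all 9, and not all of these were detected in the 3 libraries. Skeletal muscle markers were higher for 4 of 10 tested (3193 to 11573 against 1356 to 7720 summed), fibroblast markers for 1 of 8 (188 to 369 against 57.3 to 246) and plasma cell markers for 1 of 6 (16.2 to 25.1 against 2.83 to 16.8). Oral epithelium markers were higher for 0 of 10, with 4 of 10 differences above 0 and a median of -0.22 (19587 to 31730 against 26779 to 59258). Neutrophil markers were also higher by the rule for 0 of 9, but 8 of 9 differences were above 0, with a median of 2.0 (1123 to 1925 against 235 to 2595 summed). Without the 2 most abundant, S100a8 and S100a9, the other 8 summed to 13.1 scaled FPKM in vehicle 3, 85.1 in vehicle 5 and 26.6 in GA 2, against 5.45 to 44.98 in the 9. Vehicle 3 was the lowest of the 3 libraries for 8 of the 9 tested neutrophil markers, and for 11 of the 11 chaperones and co-chaperones. Neutrophil markers were not alone in dividing the 3 libraries. Vehicle 3 was the highest of the 3 for most tested muscle markers, such as Acta1 (4066 scaled FPKM, against 1264 in vehicle 5 and 3228 in GA 2). Actn3 went the other way, at 21.2 against 35.6 and 29.0. The part of each cell type in the members' differences was not tested. Y-linked transcripts were present in vehicle 3 and absent in vehicle 5 and GA 2. With this as a term the median difference of the members was 0.28, and the same 4 members were higher (3.29% of all genes). The term enters the difference but not the comparison of single libraries, so this count says little about it.

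Of 98 other genes of the pathway that could be tested, 4 were higher by the rule (0 lower), a share close to the 3.31% of all genes tested. The difference was above 0 for 77 of the 98, beside 48.8% of all genes, with a median of 0.13. The 4 higher ones were Nupr1, Creb3l4, Creb3l1 and Krtcap2. Nupr1, a small stress-induced protein counted with the PERK and ATF4 targets, had a mean of 34.2 ± 18.4 (SD, n = 3) against 3.32 ± 0.882 (n = 9) scaled FPKM, a difference of 3.25 ± 0.31. The other of the largest differences in that group of 12 was Chac1, at 0.38 ± 0.28. Creb3l4 and Creb3l1, relatives of Creb3l2, differed by 2.23 ± 0.46 and 1.78 ± 0.35. Krtcap2, a subunit of the oligosaccharyltransferase that attaches glycans, differed by 0.64 ± 0.12, and Ddost of the same complex by 0.35 ± 0.14.

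The remaining groups of the pathway had 0 genes higher by the rule. Among 18 other folding and oxidation genes, Fkbp11, a prolyl isomerase, differed by 1.80 ± 0.47 and Pdia5 by 0.86 ± 0.32, and 13 of 18 were above 0. Among 20 other translocon and signal recognition genes, Tram1 differed by 0.54 ± 0.23 and Srpr, a subunit of the signal recognition particle receptor, by 0.44 ± 0.078. For Srpr the 3 libraries lay above all 9, at 41.5 to 43.5 against 29.5 to 34.6 scaled FPKM, although the difference was under 0.58. Among 15 other degradation genes Selenos and Erlec1 differed by 0.45 ± 0.16 and 0.29 ± 0.14. Among 19 genes of ER to Golgi transport, Sec24d, a coat subunit of export vesicles, and Mcfd2, a cargo receptor subunit, differed by 0.58 ± 0.24 and 0.43 ± 0.16.

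The 10 members with the long ER stress response element had a median difference between high Lipf and the other libraries of 0.33, and the 20 without it 0.27, with 2 of the 10 and 2 of the 20 higher by the rule. These medians are over libraries that went opposite ways. Relative to the mean of the 9 libraries, the median of the 10 was 1.05 in GA 2, 0.31 in vehicle 5 and -0.44 in vehicle 3. For all 36 members, which include the 10, it was 0.68, 0.39 and -0.065. For the 11 chaperones and co-chaperones, some of which carry the element, it was 1.06, 0.26 and -0.40. Among the 9, the median of the 10 was 0.49 in GA 6 and -0.48 in GA 5, against 0.17 and -0.22 for all 36. The 11 chaperones and co-chaperones stood at 0.37 and -0.47 there. The median log2 fold change of GA against vehicle in the 9 libraries was 0.13 for the 10 and 0.032 for the 20. No test was made of these differences. Derl3 and Ero1b, whose windows are printed above, carry it, and Bhlha15 and Xbp1 do not within the window searched.

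**Figure D4:**
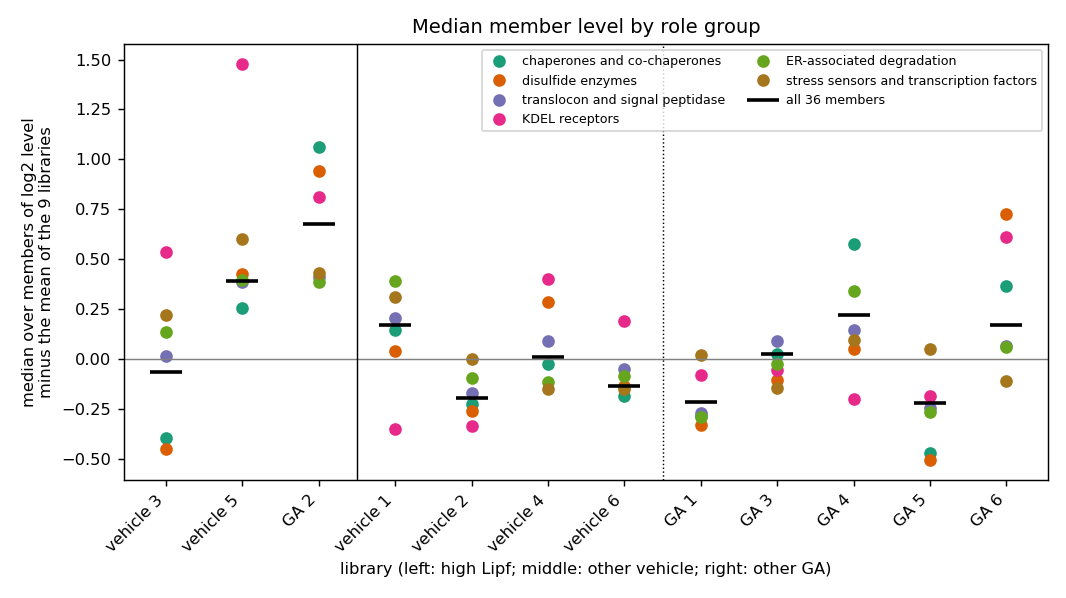
Median over the members of each role group of the log2 level minus the mean of the 9 libraries without high Lipf, by library, with black bars for all 36 members. GA 2 and vehicle 5 lie above 0 for every role group, vehicle 3 is split, with chaperones at -0.40 and KDEL receptors at 0.54, and GA 5 and GA 1 have the lowest black bars among the 9 and the lowest medians in 4 of the 6 role groups, KDEL receptors and sensors and factors being the exceptions.

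The second comparison asks whether GA changed the level of these genes once libraries with gland tissue were set aside, with 5 GA against 4 vehicle libraries. No member was called. To be called by limma, a gene needed an adjusted p (Benjamini-Hochberg, over all 16852 genes) below 0.1 and a log2 fold change of 0.58 or more in either direction. Of all genes, 0 (0%) were called, with 0.962 as the lowest adjusted p. Without adjustment, limma passed 518 genes (3.07%) at a p below 0.05, and 0 of the 36 members were among them. The voom version of limma on recovered reads called 0 genes and passed 432 at that limit, again with 0 members. The number of libraries limits what this can show: the 95% interval of the log2 fold change was -0.16 to 0.23 for Spcs1, -0.47 to 0.86 for Hspa5 and -0.46 to 1.99 for Bhlha15.

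The log2 fold change, GA against vehicle, was above 0 for 21 members and below 0 for 15, with a median of 0.037, against -0.015 over all genes, of which 47.1% were above 0. For 0 of the 36 did all GA libraries lie above or all lie below the vehicle libraries, as was so for 0.487% and 0.415% of all genes. The groups of every member therefore overlapped.

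The 11 chaperones and co-chaperones all had a fold change above 0, with a median of 0.15 and a range of 0.039 to 0.56, and none passed the test. Without GA 4 this held for 6 of the 11, without GA 6 for 8, and with the presence of Y-linked transcripts as a term for 9. Hspa5 had 118, 66.03, 78.9 and 73.2 scaled FPKM in vehicle 1, 2, 4 and 6, and 71.9, 89.8, 169, 62.5 and 106 in GA 1, 3, 4, 5 and 6. The GA group thus held both the highest library, GA 4, and the lowest, GA 5. The log2 fold change was 0.20 ± 0.29 (SE; limma, adjusted p = 0.968), and -0.018 without GA 4.

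Sdf2l1 had the largest fold change of the chaperones, 0.56 ± 0.38 (limma, adjusted p = 0.962). Its values were 8.06, 8.59, 14.3 and 7.51 scaled FPKM in the 4 vehicle libraries and 10.9, 18.3, 17.3, 6.10 and 23.3 in the 5 GA libraries. Of these, 3 GA libraries lay above all vehicle libraries and GA 5 lay below all of them. Without GA 5 the fold change was 0.85 at an unadjusted p of 0.0156 in limma. In the fit of all 12 libraries with high Lipf as a covariate it was 0.90, and there too the adjusted p did not pass.

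Creld2 and Hsp90b1 followed, at 0.31 ± 0.39 and 0.29 ± 0.25. Creld2 had 24.2, 15.0, 10.02 and 15.2 in the vehicle and 11.98, 23.6, 39.7, 11.7 and 18.6 scaled FPKM in the GA libraries, and its highest value was that of GA 4. Hsp90b1 had 43.4, 41.9, 52.1 and 39.4 against 45.4, 58.8, 57.3, 32.6 and 88.6, with GA 6 highest and GA 5 lowest. Dnajb9, Hyou1, Manf, Dnajc3, Canx, Dnajb11 and Calr lay between 0.039 and 0.18.

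**Figure D5:**
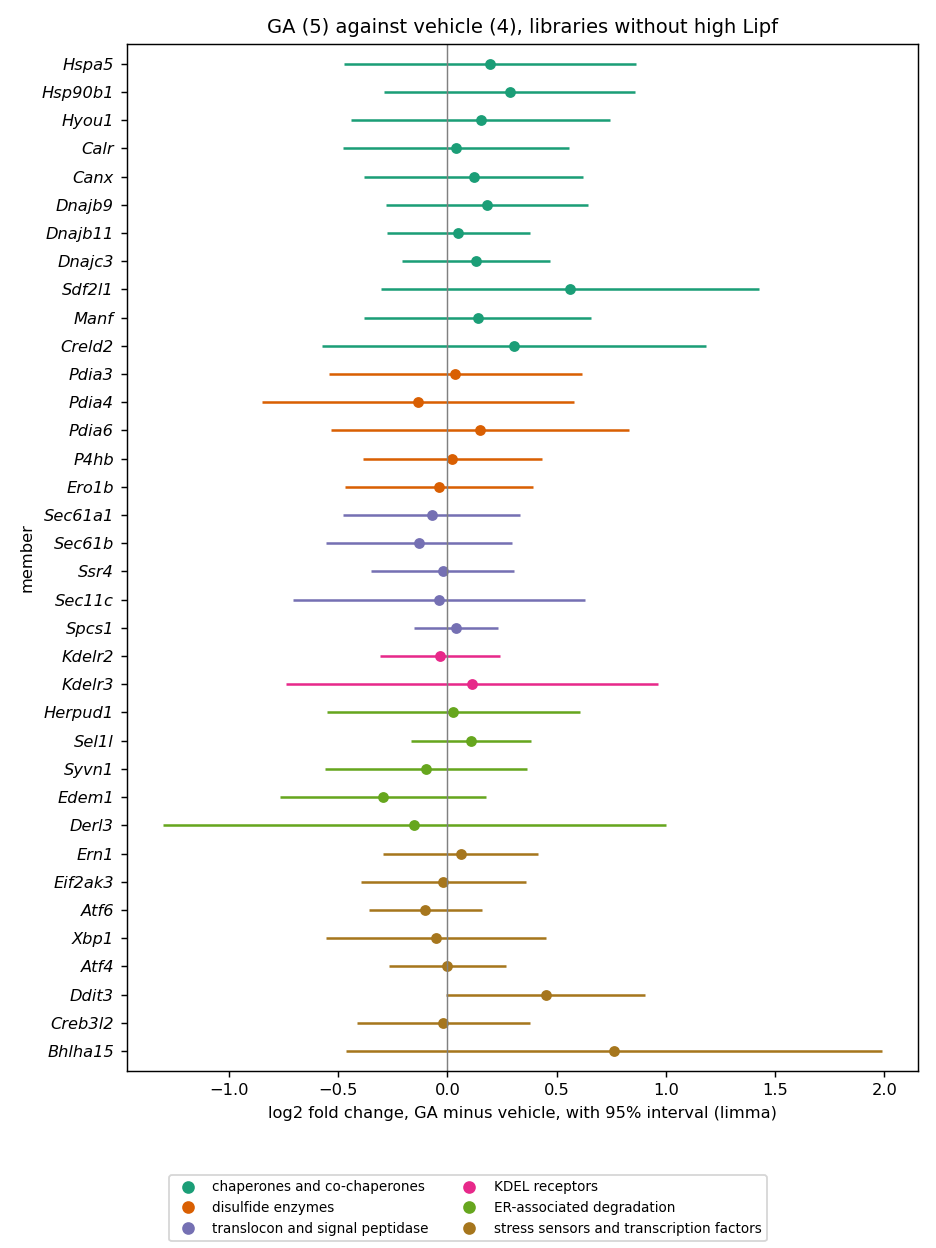
Log2 fold change of GA (n = 5) against vehicle (n = 4) among the libraries without high Lipf, with the 95% interval from limma, for the 36 members coloured by role. Every interval crosses 0, that of Ddit3 only just (-0.0053 to 0.90).

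Ddit3 came closest to the limit. It had 4.24, 7.51, 6.45 and 6.56 scaled FPKM in vehicle 1, 2, 4 and 6 and 9.47, 7.81, 7.39, 11.01 and 6.60 in GA 1, 3, 4, 5 and 6. Of the GA libraries, 3 lay above all vehicle libraries. The log2 fold change was 0.45 ± 0.20 (limma, unadjusted p = 0.0522, adjusted p = 0.962). Without vehicle 1, the lowest library, it was 0.28 at an unadjusted p of 0.143, and without GA 6 it was 0.53 at 0.0308. The adjusted p over its alternatives lay between 0.531 and 1. Another annotated gene model carries the same symbol and overlaps Ddit3, and 10.9% of its exon bases are shared with other genes. Of the genes that act upstream of it, Atf4 had a fold change of -0.00079 ± 0.12 and Eif2ak3 of -0.019 ± 0.17. These are RNA levels, and the activity of the encoded proteins was not measured.

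Bhlha15 had the largest fold change of the 36, 0.76 ± 0.54 (limma, adjusted p = 0.962), at levels near the floor. It had 0.221, 0.0770, 0.0493 and 0.0264 scaled FPKM in the vehicle libraries and 0.291, 0.0469, 0.641, 0.348 and 0.0439 in the GA libraries. Derl3, also low, had 0.361, 0.0542, 0.607 and 0.186 against 0.163, 0.351, 0.217, 0.0491 and 0.425, a fold change of -0.15 ± 0.51. For Bhlha15, 3 GA libraries lay above all vehicle libraries and 2 lay among them, and for Derl3 a vehicle library was the highest of the 9. Xbp1 had 56.7, 37.2, 31.1 and 39.3 against 39.8, 36.1, 56.1, 38.4 and 27.9, a fold change of -0.051 ± 0.22.

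Edem1 had the lowest fold change, -0.29 ± 0.21 (limma, adjusted p = 0.962), with 14.2, 9.10, 15.4 and 10.7 scaled FPKM in the vehicle and 8.81, 10.2, 10.5, 7.35 and 13.5 in the GA libraries. The vehicle group held both of the highest values and the GA group both of the lowest. Sec61b was at -0.13 ± 0.19, Pdia4 at -0.13 ± 0.31, Atf6 at -0.10 ± 0.11, Syvn1 at -0.097 ± 0.20 and Sec61a1 at -0.073 ± 0.18. Sel1l, Herpud1, Pdia3, Pdia6, P4hb, Ern1, Spcs1 and Kdelr3 lay between 0.023 and 0.15, and Ero1b, Sec11c, Kdelr2, Ssr4 and Creb3l2 between -0.038 and -0.018. No role group had a member that passed.

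The 9 libraries differed among themselves within each group. GA 6 was the highest of the 9 for 12 members and GA 4 for 10, whereas GA 5 was the lowest for 13 and GA 1 for 9. The libraries at the top differed in which genes they raised. GA 6 was highest for Hsp90b1, Calr, Canx, Pdia3, Pdia4, Pdia6 and Sdf2l1, and lowest of the 9 for Xbp1 (27.9), Herpud1 (16.2) and Dnajb9 (7.88 scaled FPKM). GA 4 was highest for Hspa5, Hyou1, Manf, Creld2, Dnajb9 and Herpud1, where Herpud1 stood at 39.8 and Dnajb9 at 16.6. Vehicle 1 was highest for 7 members, among them P4hb (409), Xbp1 (56.7), Sec11c (10.8) and Atf6 (8.26).

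Of the 98 other pathway genes tested, 0 were called in the GA comparison, 41 had a fold change above 0 and 57 below, and the median was -0.026. At an unadjusted p below 0.05, limma passed 1 higher and 1 lower, against 1.54% and 1.53% of all genes. Selenos, a selenoprotein of the degradation complex, had means of 20.2 in vehicle and 26.1 scaled FPKM in GA libraries, a fold change of 0.36 ± 0.11 (limma, unadjusted p = 0.0111, adjusted p = 0.962), with all 5 GA above all 4 vehicle libraries. Psat1, a serine synthesis enzyme and ATF4 target, had means of 34.9 and 26.7, a fold change of -0.39 ± 0.12 (limma, unadjusted p = 0.0103, adjusted p = 0.962), with overlap. The other pathway genes with the largest fold changes in their groups did not pass an unadjusted 0.05: Fkbp11 (0.50), Pdia5 (0.21), Ostc (0.23), Ddost (-0.16), Tram1 (-0.23), Spcs3 (0.16), Derl2 (0.22), Sec24d (-0.28), Sec23b (-0.27), Nupr1 (0.33), Creb3l3 (-0.40) and Creb3l1 (-0.24).

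Marker lists in the same 9 libraries also gave 0 calls. Gland markers other than Lipf summed to 4.52 to 9.45 scaled FPKM in vehicle and 4.11 to 12.03 in GA libraries. Muscle markers summed to 1356 to 5400 against 2009 to 7720, with 7 of 10 above 0. Neutrophil markers summed to 1220 to 2595 against 235 to 1614, with 9 of 9 tested below 0. Epithelial markers summed to 26779 to 59258 against 26957 to 34123, with 10 of 10 below 0, and fibroblast markers to 105 to 174 against 57.3 to 246, with 7 of 8 below 0. Plasma cell markers summed to 5.39 to 16.8 against 2.83 to 10.9. Y-linked transcripts were present in 3 of the 4 vehicle and 1 of the 5 GA libraries, and with this as a term 18 members were above and 18 below 0. The part of these differences in the members' values was not tested.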

How the data were processed

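Tongue RNA was sequenced as 12 libraries, 6 per group, after a SMARTER mRNA library preparation. HISAT2 alignment to mm10 and featureCounts counting of uniquely mapped reads were done by the authors, who deposited FPKM values. The strand setting is not given in the sources used here. Rows without a gene name (41.4% of rows, 16.2% to 25.5% of summed FPKM) were left out. Low FPKM values were whole multiples of 1 read for 97.5% to 98.1% of values (within 0.02) once exon lengths of GENCODE M21 were shortened by 17.0 to 24.2 bases, which gave the library totals and reads per gene. FPKM were divided by a trimmed mean of log ratios (factors 0.896 to 1.07). Genes averaging 0.1 FPKM or more were compared on log2(scaled FPKM + 0.1), which understates changes of low genes, with limma 3.58.1 (trend) in R 4.3.3, and the fit was tested on simulated data. Tables and plots used Python 3.11.15, pandas 2.3.3, numpy 2.4.6 and matplotlib 3.10.9. The methods of the study used a count test at the same limits. FPKM are not counts, so limma took its place.

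The members, the other lists and the tests were chosen with earlier results of these data known. All members are named. Of other pathway genes, the 2 with the largest difference per role and comparison are named, besides those counted as called or at an unadjusted p below 0.05. Markers are given mostly by list. Groups came from the labels, and replicate numbers do not say which mice are related. Each library was taken as 1 mouse, which the labels do not state, so p-values measure the spread between these libraries, which may be partly technical. Same-numbered libraries of the 9 did not deviate together (correlations -0.21, -0.091 and 0.074). The lowest rank correlation between libraries of a group was 0.889 and the highest 0.971. Alternatives were other pseudocounts, filters and scalings, a term for Y-linked transcripts, a treatment term, a Lipf limit of 10, all 12 libraries, a replicate block, voom, a robust fit and each library left out in turn. The Lipf limit of 10 gave the same split of the libraries. A planned look at protein ends was not analysed here.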

Additional observations from a re-analysis of the deposited data

Results flagged for a closer look

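For each member, the highest or lowest library of the 4 vehicle and of the 5 GA libraries without high Lipf was set against the nearest other library, as the share of the group's range that the gap took (Dixon's ratio, limits 0.829 for 4 and 0.71 for 5 libraries). Of 72 sets of values, 9 (12.5%) passed. Chance alone passes about 1 in 20 where values are normally distributed, which scaled FPKM without a logarithm need not be. Members measured in the same libraries are also not independent. Vehicle 1 stood above the rest of its group for 4 members: Syvn1 at 13.5 against at most 8.98 scaled FPKM (ratio 0.943), P4hb at 409 against 272 (0.879), Manf at 19.6 against 13.5 (0.875) and Atf6 at 8.26 against 6.62 (0.838). Vehicle 4 was high for Sdf2l1, at 14.3 against 8.59 (0.842), and vehicle 2 was low for Pdia4, at 24.1 against at least 37.7 (0.852). In the GA group, GA 6 was high for Canx, at 94.5 against 53.4 (0.795), and for Kdelr3, at 5.65 against 2.81 (0.754), and GA 4 was high for Syvn1, at 13.7 against 9.27 (0.722).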

How the results depend on the processing

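The 4 members higher with high Lipf (3.31% of all genes tested) were 2 of 34 with a filter of a mean of 1 FPKM (2.54%). That filter removed Derl3 and Ero1b from the genes tested, and Bhlha15 passed it only through the 3 libraries with high Lipf. Members higher by the rule numbered 4 to 8 when libraries were left out in turn (3.35% to 5.88% of all genes), with 8 without vehicle 3 (5.19%). Their number was 3 without scaling (2.75% of all genes) or with a pseudocount of 1 (2.33%), and 5 with median scaling (3.48%). The median difference of the members was 0.096 to 0.54 when libraries were left out in turn and stayed above 0 in all settings run. For GA against vehicle, 0 members were called in every setting run. The number of genes called was 1 with a pseudocount of 0.01, 0 to 2 when libraries were left out in turn, all of them small RNAs or predicted genes by their names, and 287 at an unadjusted p below 0.05 with the same fold limit. Genes at an unadjusted p below 0.05 numbered 363 to 1560 when libraries were left out, with 1560 without GA 6. The members' median fold change was below 0 without GA 4 (-0.028) and without GA 6 (-0.015), and at most 0.099 otherwise among libraries left out. Of 754 values of single members for GA under alternatives, 663 kept the sign of the main fold change, whatever their size, and 91 changed sign. Of 790 differences for high Lipf, 778 moved by less than 1 SD of the 9 libraries and 12 by more. With the replicate number as a block, 0 genes were called, 183 passed an unadjusted p below 0.05 and 24 members were above 0. The numbers do not pair the samples. Few reads limit Bhlha15 and Derl3, with as few as 2 in a library.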
